A study of Homo sapiens with 12 samples.

Results

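The 9 mucin genes MUC1, MUC2, MUC4, MUC5AC, MUC5B, MUC12, MUC13, MUC17 and MUC20 were followed by their transcript counts in spheroids of Caco-2, a human colon adenocarcinoma line that differentiates towards small intestinal enterocytes. The genes were chosen by symbol, and each had a single row among the 48162 genes of the deposited table. MUC1, MUC4, MUC12, MUC13, MUC17 and MUC20, 6 in all, are membrane-bound mucins, and the other 3, MUC2, MUC5AC and MUC5B, are secreted, gel-forming mucins. Passage 26 cells had grown for 5 days in Matrigel, a basement membrane gel, with 20% fetal bovine serum, and were then exposed for 4 h. The 4 groups, of 3 libraries each, received carrier fluid (control), methotrexate, lactoferrin, or methotrexate together with lactoferrin (below, both agents). The labels give no doses, all spheroids came from the same line, and no label says whether the libraries of a group were separate cultures. The p-values therefore measure the spread between these libraries, which may be technical.

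Mucins are proteins with long serine-, threonine- and proline-rich stretches that are densely decorated with O-linked sugars. Gel-forming mucins polymerise after secretion into the mucus layer, with MUC2 the main one of goblet cells in the intestine and MUC5AC and MUC5B better known from stomach and airway. Membrane-bound mucins stand on the apical surface of enterocytes, where MUC13, MUC12 and MUC17 form part of the glycocalyx. Methotrexate is a folate antagonist that damages the gut lining in patients, and lactoferrin is an iron-binding milk protein.

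The sugar-bearing stretches are often built from tandem repeats, and these matter here because a read inside a repeat fits several places in the same transcript. In the longest GENCODE release 29 transcript of each gene, 75-base windows that recur in the same transcript made up 55.2% of MUC12, 37.1% of MUC1, 23.8% of MUC5B, 18.1% of MUC20, 17.6% of MUC4, 15.2% of MUC5AC, 1.72% of MUC17 and 0% of MUC13. Among 18791 protein-coding genes, 98.7% had no such window and 0.202% had more than 10%. The window is a description, since no source used here gives the read length or how reads with several matches were handled. MUC2 has only a short coding transcript in that release and got no value. The most frequent exact unit is shown for MUC1 and MUC20, the mucins whose annotated lengths matter below, and for the leading secreted mucin, all in the coding strand and inside the coding sequence. The MUC1 unit of 60 bases occurred 19 times, the MUC20 unit of 57 bases 10 times and the MUC5AC unit of 24 bases 16 times.
MUC1: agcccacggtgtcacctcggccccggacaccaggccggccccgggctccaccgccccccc
MUC20: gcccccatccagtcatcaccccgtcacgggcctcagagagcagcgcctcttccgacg
MUC5AC: ctcctacaaccagcacaacctctg
The MUC5AC unit is the shortest of these. MUC13, the most abundant of the 9 mucins below, had no recurring window, so its count is the least exposed to this limit.

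The 250 bases before the start site are shown for MUC13 and MUC2, the membrane-bound and the secreted mucin most tied to intestinal epithelium. They are examples that carry letters recognised by factors of that tissue. The window of MUC17, not shown, held 3 matches to the GATA letters TGATAA on either strand, and 6.89% of promoters held any such match. Of the other windows found, those of MUC1 and MUC12 held a TATA box match alone. That of MUC4 held none of the motifs searched. The windows come from RefSeq on GRCh38.p14, which held 6 of the 9 genes. MUC5AC, MUC5B and MUC20 were not matched. Capitals mark the motif found. The MUC13 window lies at chr3:124934752-124935001 on the minus strand and that of MUC2 at chr11:1074624-1074873 on the plus strand.
MUC13: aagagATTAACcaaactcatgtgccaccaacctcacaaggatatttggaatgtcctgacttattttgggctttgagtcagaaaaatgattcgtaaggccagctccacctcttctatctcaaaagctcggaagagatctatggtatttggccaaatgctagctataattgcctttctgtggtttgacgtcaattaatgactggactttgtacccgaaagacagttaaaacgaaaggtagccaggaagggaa
MUC2: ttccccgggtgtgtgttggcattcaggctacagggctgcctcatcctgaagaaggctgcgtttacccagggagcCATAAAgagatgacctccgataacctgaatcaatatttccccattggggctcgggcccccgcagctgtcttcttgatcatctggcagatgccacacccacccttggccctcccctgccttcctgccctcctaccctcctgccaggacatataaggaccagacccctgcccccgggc
The motifs were searched on both strands and did not overlap each other in these windows. The MUC13 window held the HNF1 recognition letters GTTAAT, which is ATTAAC on the other strand, 245 bases before the start, and 6.22% of 27305 promoters held it. The MUC2 window held the CDX letters TTTATG, which are CATAAA on the other strand, 176 bases before the start, and 10% of promoters held them. A match of letters is a description and not a binding site.

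The methotrexate libraries stood apart from the rest, which touches each comparison that uses them. They held 47459811 to 60591667 counts against 18714054 to 23859094 in the other 9, and 6.67% to 7.54% of their counts were mitochondrial against 2.00% to 3.34%. They also carried transcripts of other cell types. The summed level of 14 adipocyte markers was 20014 to 20819 CPM (counts scaled to a common library size with TMM, edgeR's default scaling) in methotrexate, 56.8 to 60.4 in control and 51.0 to 60.2 in the groups with lactoferrin, and all 14 were called higher than in control. ADIPOQ, which encodes the adipocyte hormone adiponectin, was at 1556 ± 53.2 CPM in methotrexate and 0.0798 ± 0.138 in control (SD, n = 3 each). The 14 fibroblast markers summed to 10526 to 12072 CPM in methotrexate and 932 to 1042 in control, with COL15A1, DPT and MFAP5 at 0 counts in control, and 13 were called higher and 1 lower. All 15 enterocyte markers had counts in every group, and they summed to 6524 to 6888 CPM in control, 6200 to 6953 in the groups with lactoferrin and 2846 to 3222 in methotrexate. Transcripts of fat and connective tissue at these levels go against the labelled cell line, so these libraries are called methotrexate here by their label alone, and whether the label is right was not tested. The part of these transcripts in the mucin results was not tested either; changes against control are therefore also given relative to 49 epithelial genes, here called epithelial scaling.

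Mucin transcripts were scarce. The 9 genes together had 778 to 1131 counts in a library, which was 0.00185% to 0.00495% of all counts. By count, 8 of the 9 passed the filter on low values, and MUC5B, with 3 to 26 counts a library, did not.

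In control, MUC13 dominated the mucins. It had 666, 753 and 668 counts in the 3 libraries, or 31.9, 30.2 and 28.2 CPM. To compare genes, levels were divided by the gene length of the deposited table, giving CPM per kb. On that scale MUC13 stood at 10.5 ± 0.643 (SD, n = 3), which was 83.8% ± 3.73 of the 9 mucins together. MUC5AC followed at 1.04 ± 0.220 CPM per kb, 10.1 times lower and without overlap between the libraries. Of 10 markers of gastric and airway secretory cells, which are known for MUC5AC, 7 had counts in control, with TFF1 at 55.2 ± 1.87 CPM. GKN1, GKN2 and SCGB1A1 had 0 counts there, and 3 of the 10 passed the filter on low values. The 10 summed to 94.6 to 101 CPM in control and 46.1 to 48.1 in methotrexate. MUC1, a mucin of many epithelia that also signals through its cytoplasmic tail, stood at 0.395 ± 0.216, and MUC17 at 0.246 ± 0.0244, with overlapping libraries. Below them MUC20 (0.124 ± 0.0482), MUC12 (0.0956 ± 0.0320), MUC2 (0.0612 ± 0.0386) and MUC4 (0.0392 ± 0.00854) each overlapped the next. MUC5B was lowest at 0.0157 ± 0.00667 CPM per kb, with all 3 libraries below those of MUC4.

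The order depends on gene length for at least 3 genes. The deposited table gives MUC5AC 4012 bases, MUC1 1811 and MUC20 6193, whereas the longest GENCODE release 29 transcripts have 17448, 4170 and 2842 bases. With those lengths MUC5AC came to 0.239 ± 0.0506 CPM per kb in control, MUC1 to 0.172 ± 0.0939 and MUC20 to 0.269 ± 0.105, and their libraries overlapped. MUC13 stayed at 10.5 ± 0.642, above all others in every control library. MUC2 has 8637 bases in the deposited table and 393 in its longest release 29 coding transcript. The deposited length was kept for MUC2 throughout, so its level per kb and rank are also uncertain.

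**Figure D1:**
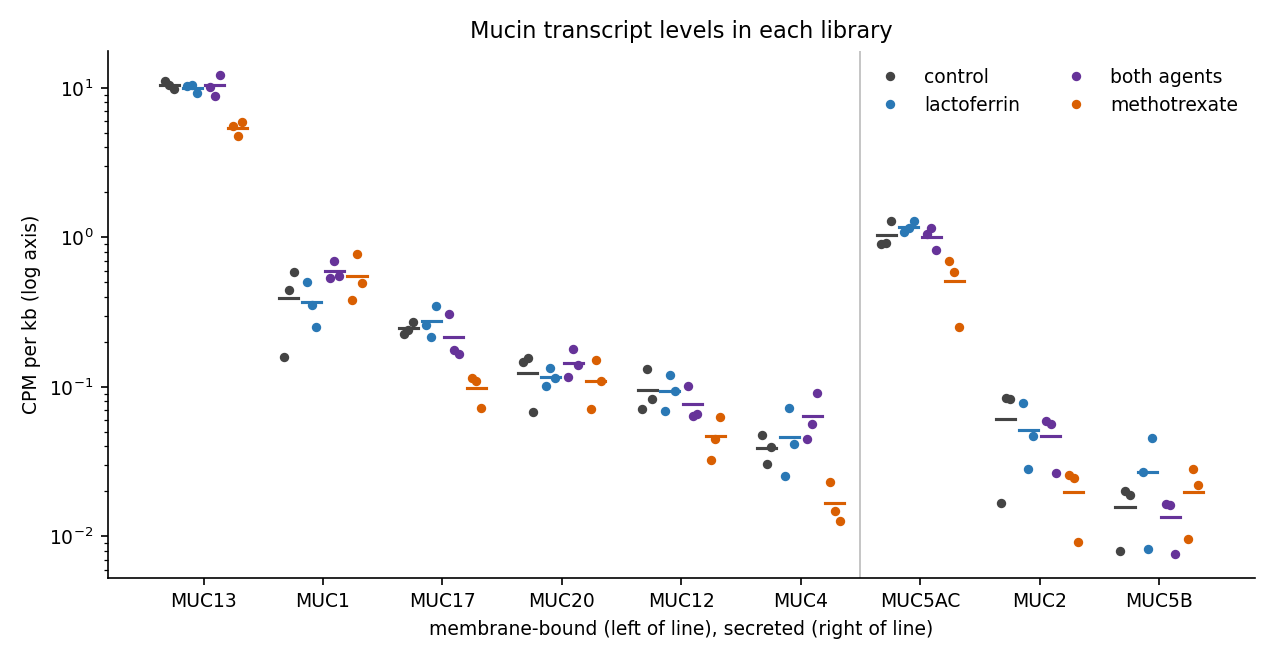
Levels of the 9 mucins in CPM per kb on a log axis, with a point for each library and a bar for the group mean (n = 3). MUC13 lies above every other mucin in all 12 libraries, and the methotrexate points of MUC13, MUC17, MUC12, MUC4 and MUC5AC lie below all control points.

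Set as classes, membrane-bound mucins summed to 11.4 ± 0.460 CPM per kb in control and secreted mucins to 1.12 ± 0.246. MUC3A, a membrane-bound mucin outside the chosen genes, was not in these sums. Per kb it stood above MUC5AC in control, as given below. The ratio of membrane-bound to secreted was 12.6, 11.2 and 7.77 in the 3 control libraries, with a mean of 10.5 ± 2.49. MUC13 set the first sum and MUC5AC the second, of which it made up 93.3% ± 3.78. Without both of these genes the ratio was 26.4, 9.64 and 10.3 in the control libraries, and its mean of 15.4 fell to 9.95 without library 1, where MUC2 and MUC5B had 3 counts each. With GENCODE lengths for all but MUC2 it was 37.8, so the size of the ratio varied with these choices while it stayed above 1.

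The scarcity of MUC2 can be set beside other genes of goblet cells, the mucus-secreting cells of the gut. AGR2, a disulfide isomerase that folds mucins, stood at 340 ± 36.0 CPM per kb in control. The trefoil peptides, small proteins secreted with mucins, were also high, with TFF1 at 100 ± 3.40 and TFF2 at 55.5 ± 4.56. TFF1 and TFF2 are also among the gastric and airway secretory markers above, so they are not particular to goblet cells. REG4, a secreted lectin, stood at 35.0 ± 3.22, ZG16, a lectin of the mucus layer, at 5.38 ± 2.70, and SPINK4, a goblet cell protease inhibitor, at 3.76 ± 0.868. A further 3 goblet cell products were chosen after their values were seen: TFF3 stood at 158 ± 10.2 CPM per kb, and FCGBP, which binds MUC2 in mucus, at 0.0549 ± 0.0116. CLCA1, a protease that cleaves MUC2, had 0, 0 and 3 counts. Thus the trefoil peptides, AGR2 and REG4 stood above all 9 mucins in control. The means of FCGBP and CLCA1 lay below that of MUC2, but the libraries of both overlapped those of MUC2. Among transcription factors, HNF4A of enterocytes stood at 212 ± 12.8 and XBP1, which expands the secretory apparatus, at 137 ± 1.77. ATOH1, which sets the secretory lineage, was at 0.832 ± 0.196 and SPDEF, which matures goblet cells, at 0.338 ± 0.0767.

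**Figure D2:**
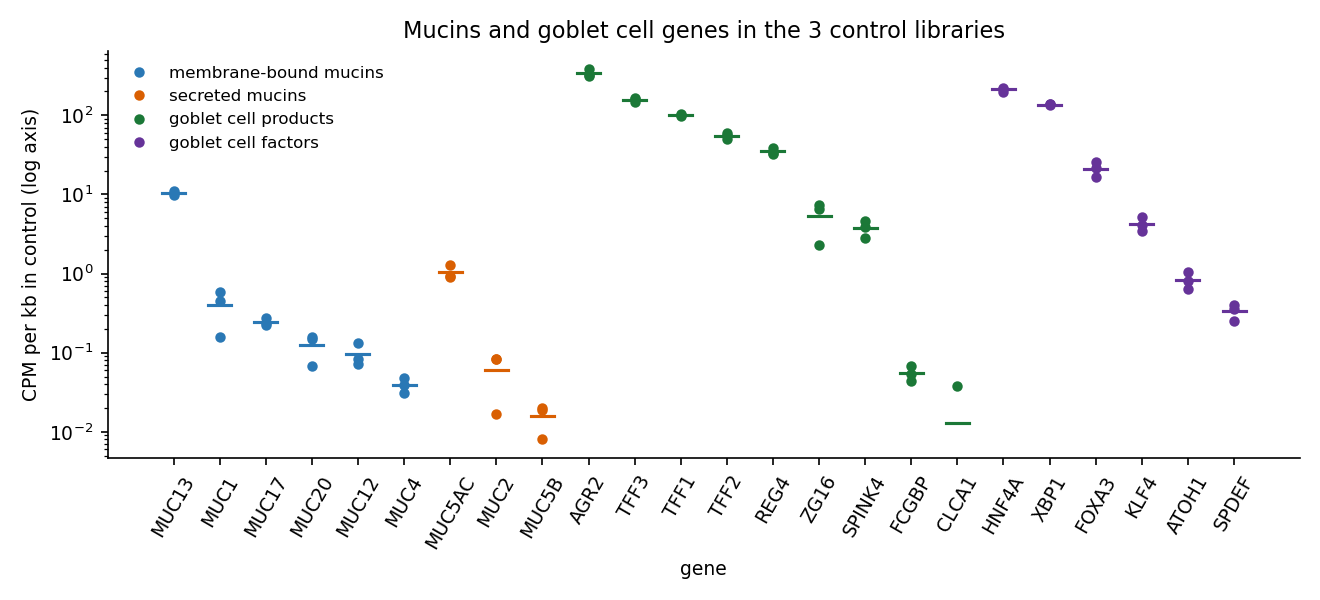
Control levels in CPM per kb on a log axis, with a point for each of the 3 control libraries and a bar for the mean; a library at 0 has no point, which leaves CLCA1 with a single one. AGR2, TFF3, TFF1, TFF2 and REG4 lie above every mucin, and MUC2, MUC4, MUC5B, FCGBP and CLCA1 lie near the bottom.

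The libraries labelled methotrexate were set against control to see how mucin levels differed between these groups. MUC13 was at 15.9, 13.7 and 17.1 CPM in the methotrexate libraries and at 31.9, 30.2 and 28.2 in control, with no overlap. Its level was 0.517 times control (95% interval 0.428 to 0.625), a log2 change of -0.95 ± 0.13 (SE). The adjusted p was 8.51e-06 in the edgeR quasi-likelihood test, adjusted by the Benjamini-Hochberg method over 16733 genes. In bulk RNA, fewer cells of a type and less RNA per cell cannot be told apart. MUC17, a large enterocyte mucin bound to the brush border, was at 1.63, 1.55 and 1.03 CPM against 3.21, 3.41 and 3.89. This was a log2 change of -1.32 ± 0.27 (edgeR adjusted p = 0.00043), again without overlap.

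MUC12 and MUC4 are the other membrane-bound mucins that were called lower. MUC12, of the colonic surface, was at 0.542, 0.755 and 1.05 CPM in methotrexate and at 1.20, 2.21 and 1.39 in control (log2 change -1.02 ± 0.33, edgeR adjusted p = 0.0135). MUC4, a partner of the receptor ERBB2, was at 0.394, 0.252 and 0.218 CPM against 0.814, 0.522 and 0.676 (log2 change -1.22 ± 0.44, edgeR adjusted p = 0.0241). Neither gene's groups overlapped, but the counts were low, at 11 to 17 for MUC4 in these libraries. The MUC4 call was lost without control library 1 (edgeR adjusted p = 0.0843), control library 3 (0.0568), methotrexate library 2 (0.0727) or methotrexate library 3 (0.0817). The MUC12 call was lost without control library 2 (edgeR adjusted p = 0.105) or methotrexate library 1 (0.0549).

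Both tested secreted mucins were called lower. MUC5AC was at 2.78, 2.34 and 1.01 CPM in methotrexate and at 3.64, 3.69 and 5.19 in control, without overlap, a log2 change of -1.04 ± 0.29 (edgeR adjusted p = 0.00484). MUC2 was at 0.222, 0.213 and 0.0793 CPM against 0.144, 0.723 and 0.718, and here control library 1 lay within the methotrexate range. Its log2 change was -1.64 ± 0.57 (edgeR adjusted p = 0.0197) on 3 to 18 counts a library. That call was lost without control library 2 (edgeR adjusted p = 0.0992), control library 3 (0.0913) or methotrexate library 3 (0.0812).

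MUC1, MUC20 and MUC5B did not pass the test. MUC1 was at 0.690, 1.39 and 0.892 CPM in methotrexate and at 0.287, 0.803 and 1.06 in control, a log2 change of 0.46 ± 0.40 (edgeR adjusted p = 0.329) with overlapping groups. MUC20, a mucin that binds the receptor MET, was at 0.443, 0.930 and 0.674 CPM against 0.910, 0.964 and 0.422 (log2 change -0.15 ± 0.37, edgeR adjusted p = 0.740). For MUC5B, fitted without the filter, the log2 change was 0.37 ± 0.56 (edgeR adjusted p = 0.642).

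In all, 6 of the 8 tested mucins were called lower and 0 higher, where 29.1% of all genes tested were called lower and 35.4% higher. Of the 8, 5 had methotrexate libraries all below control, against 33% of all genes. The median log2 change was -1.03 over these mucins and 0.029 over all genes. The same size of change was seen in epithelial genes at large: of 49 epithelial reference genes 44 were called lower and 3 higher, with a median of -1.05. EPCAM, an adhesion protein of all epithelia, changed by -1.03 ± 0.14 and VIL1, the brush border protein villin, by -1.12 ± 0.10 on the log2 scale.

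**Figure D3:**
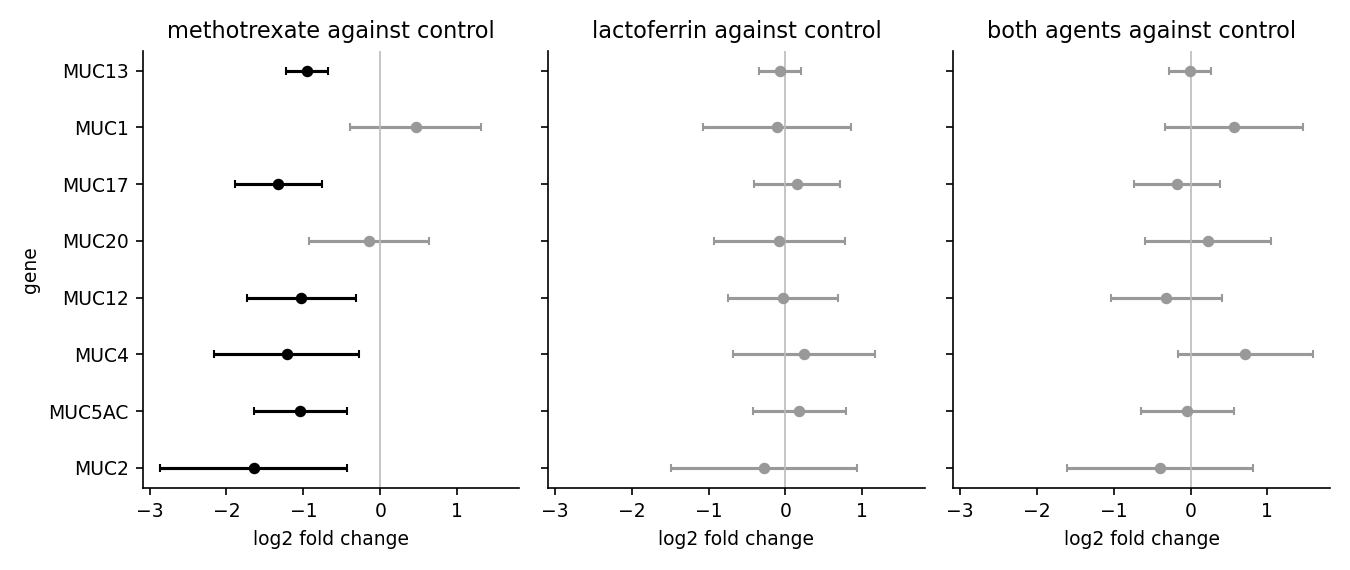
Log2 fold changes of the 8 tested mucins against control in each treated group, with 95% intervals; black marks those with an adjusted p under 0.05 and grey the others. Black points occur in the methotrexate panel, for 6 mucins, and in neither of the other panels.

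Relative to the epithelial genes, MUC1 was called higher in methotrexate than in control, and no other tested mucin was called. A missing call does not show an unchanged level where the SE is large, as for MUC12, MUC4 and MUC2. With epithelial scaling, MUC13 was at a log2 change of 0.042 ± 0.16 (edgeR adjusted p = 0.816), within 1 SE of 0. MUC5AC was at -0.073 ± 0.26, MUC12 at -0.018 ± 0.35, MUC4 at -0.25 ± 0.46, MUC17 at -0.35 ± 0.25 and MUC2 at -0.68 ± 0.56, with none called. MUC1 was called higher, at 1.45 ± 0.41 or 2.74 times control (edgeR adjusted p = 0.00328), and MUC20 was at 0.84 ± 0.38 (adjusted p = 0.0534). This scaling shifted the median of all genes from 0.029 to 1.02, and 77.8% of all genes were then called higher and 0.299% lower. The mucins' own median was -0.046, so the single mucin called higher out of 8 was below the background share. MUC1 overlaps KRTCAP2 on the same strand, and MUC20 overlaps the long noncoding RNA AC069513.3 on the same strand, so some of their counts may belong to those genes. KRTCAP2 changed by 0.11 ± 0.17 and AC069513.3 by -0.046 ± 0.17 with TMM scaling, and by 1.10 and 0.95 with epithelial scaling.

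**Figure D4:**
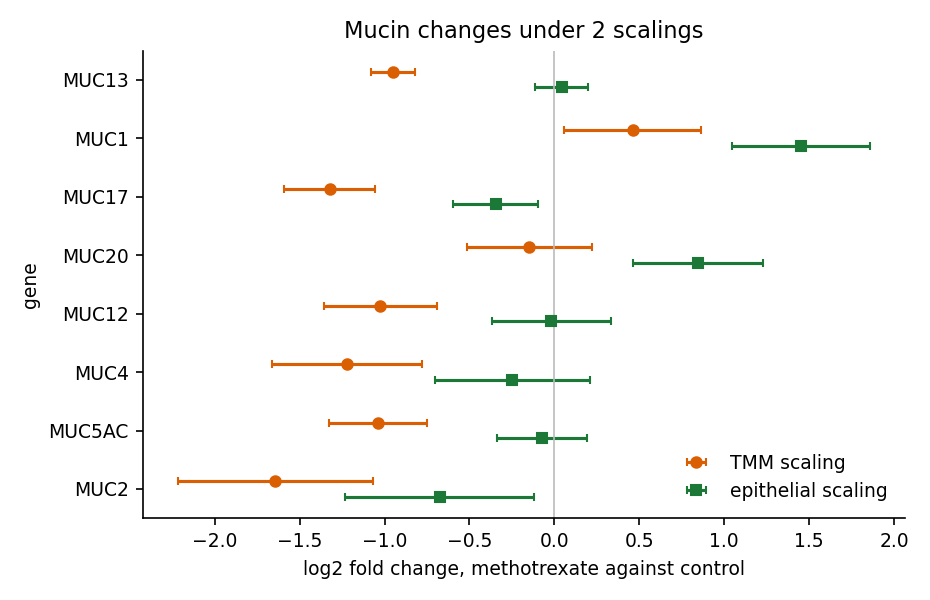
Log2 change of each tested mucin in methotrexate against control with TMM scaling (circles) and epithelial scaling (squares), with bars of 1 SE. All 8 mucins move to the right under epithelial scaling, and MUC13 moves from -0.95 to 0.042.

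The balance of the classes in methotrexate rested on a single library. Membrane-bound mucins summed to 6.23 ± 0.417 CPM per kb and secreted mucins to 0.550 ± 0.235. The ratio was 8.43 and 9.21 in libraries 1 and 2 and 23.6 in library 3, where MUC5AC had 51 counts against 113 and 121. The mean of 13.7 ± 8.54 thus overlapped that of control, 10.5 ± 2.49, and was 8.82 without library 3. MUC13 made up 79.7% ± 5.89 of the mucins, close to its control share of 83.8% ± 3.73. In the order of levels, MUC1 at 0.548 ± 0.200 CPM per kb and MUC5AC at 0.510 ± 0.230 overlapped.

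Lactoferrin alone left no mucin past the test. MUC13 was at 29.5, 30.1 and 26.6 CPM, overlapping the control range, and its log2 change of -0.067 ± 0.13 had a 95% interval of -0.34 to 0.21. MUC5AC was at 4.37, 4.66 and 5.17 CPM with a log2 change of 0.18 ± 0.28 and an interval of -0.43 to 0.78. The interval was wider for scarce mucins, with MUC2 at -0.28 and an interval of -1.49 to 0.93. A 2-fold fall of MUC2 thus lay within its interval. By edgeR, 0 of 8 mucins were called, where 0% of all genes were called; 0 of 8 had an unadjusted p under 0.05, as did 628 of 16733 genes. DESeq2 called 0 of the 8 as well. The ratio of membrane-bound to secreted was 9.39, 9.47 and 7.31, with a mean of 8.73 ± 1.22, and it overlapped control.

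With both agents, no mucin differed from control past the test either. MUC13 was at 29.2, 25.4 and 35.3 CPM, with 1 library below, 1 within and 1 above the control range, and with a log2 change of -0.0064 and an interval of -0.28 to 0.27. MUC4 had the highest estimate, with 0.764, 0.970 and 1.55 CPM and a log2 change of 0.71 ± 0.41 (interval -0.17 to 1.59), and its groups overlapped. MUC1 was at 0.976, 1.26 and 1.00 CPM with a log2 change of 0.57 ± 0.42 (interval -0.33 to 1.47). By edgeR, 0 of 8 mucins were called against 0.0299% of all genes, and 0 of 8 had an unadjusted p under 0.05, as did 591 genes in all. The membrane-bound to secreted ratio was 9.95, 8.20 and 15.4, with a mean of 11.2 ± 3.74. Against lactoferrin alone, 0 of 8 were called (0.0179% of all genes), and MUC1 was the mucin whose groups did not overlap, higher with both agents at a log2 difference of 0.68 ± 0.44; in 3.67% of all genes the groups were apart in that direction.

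Both agents were then set against methotrexate alone, which asks whether mucin levels differed when lactoferrin was present. This comparison shares the methotrexate libraries with the one above, so the values are given side by side and not as separate evidence. MUC13 was at 25.4 to 35.3 CPM with both agents and at 13.7 to 17.1 with methotrexate alone, 1.93 times higher (log2 0.95 ± 0.13, edgeR adjusted p = 9.64e-06). MUC4 was at 0.764 to 1.55 CPM against 0.218 to 0.394, a log2 difference of 1.93 ± 0.42 (edgeR adjusted p = 0.000847). MUC17 differed by 1.15 ± 0.27 (edgeR adjusted p = 0.00157) and MUC5AC by 1.00 ± 0.29 (edgeR adjusted p = 0.00672). These 4 of 8 mucins were called higher and 0 lower, where 28.8% of all genes were called higher and 34.4% lower. With epithelial scaling MUC4 alone stayed past the test, at 1.02 ± 0.44 (edgeR adjusted p = 0.0416), where 0.55% of all genes were called higher, (75.5% lower), and MUC13 was at 0.011.

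The interaction asks whether the difference that went with the methotrexate label was itself different in the presence of lactoferrin. It was called for 3 of 8 mucins, MUC13, MUC4 and MUC17, all in the higher direction, where 20.6% of all genes were called higher and 26.1% lower. The log2 interaction was 1.01 ± 0.18 for MUC13 (edgeR adjusted p = 0.000308), 1.69 ± 0.60 for MUC4 (0.0312) and 0.99 ± 0.38 for MUC17 (0.0403). With epithelial scaling 0 of 8 mucins were called, where 0.221% of all genes were called higher and 67.1% lower, and MUC13, MUC4 and MUC17 were at 0.042, 0.74 and 0.023. With a replicate block the edgeR adjusted p was 0.0543 for MUC4 and 0.0572 for MUC17. The calls for MUC4 and MUC17 each rested on single libraries. The edgeR adjusted p of MUC4 was 0.0756 without control library 1, 0.0586 without control library 3, 0.0867 without library 3 of both agents, 0.0767 and 0.0648 without lactoferrin library 1 or 3, and 0.0686 and 0.0710 without methotrexate library 2 or 3. That of MUC17 was 0.0621 and 0.0853 without control library 2 or 3, 0.155 without library 1 of both agents, 0.0770 and 0.0948 without lactoferrin library 1 or 2, and 0.0899 without methotrexate library 3. The adipocyte markers, at 51.0 to 58.5 CPM with both agents and 20014 to 20819 with methotrexate alone, followed the same split of the libraries.

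The counts over the gene lists below are to be read against all genes tested in methotrexate, of which 35.4% were called higher and 29.1% lower, and with epithelial scaling 77.8% higher and 0.299% lower. Of 15 other mucins and mucin-like proteins, 7 were tested, with 4 called higher and 2 lower and a median log2 change of 0.68. MUC3A, a membrane-bound mucin encoded beside MUC12 and MUC17, stood between MUC13 and MUC5AC per kb, at 3.02 ± 0.623 CPM per kb in control. It fell by 0.67 ± 0.16 on the log2 scale in methotrexate (edgeR adjusted p = 0.00203), and with epithelial scaling it stood at 0.33. MUC3A has a near-identical copy, MUC3B, so its counts are uncertain. Of those called higher, MCAM, an adhesion molecule of vessels, went from 2.78 ± 0.199 to 504 ± 9.06 CPM. EMCN, the endothelial sialomucin endomucin, had 0 counts in every control library and 66, 113 and 87 in methotrexate, at least 14.2-fold higher against a floor of 3 counts per control library. The 9 endothelial markers in the table summed to 26.6 to 35.6 CPM in control and 31.1 to 33.7 in methotrexate, with TEK at 0 counts in control. Of 6 tested, 4 were called higher and 1 lower, and their part in these values was not tested. OVGP1, the oviduct mucin-like protein, rose by 2.49 ± 0.33 and CD164, a sialomucin of many cells that was at 294 ± 19.1 CPM in control, by 0.68 ± 0.13 on the log2 scale. PODXL, a sialomucin of kidney podocytes and vessels, fell from 127 ± 6.02 to 71.1 ± 6.54 CPM, and it was the other member called lower. MUC6, the gel-forming mucin of gastric glands, had 6 to 15 counts in control and was not called in methotrexate (log2 change 0.30 ± 0.41). With both agents MUC6 had 3, 6 and 1 counts, a log2 change of -1.65 ± 0.56 that was not called (edgeR adjusted p = 1).

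GALNT family enzymes put the first sugar on mucins. Of 17 listed GALNT and related genes, 13 were tested, with 6 lower and 2 higher in methotrexate and a median log2 change of -0.61. GALNT6 went from 120 ± 10.04 to 54.4 ± 6.46 CPM (log2 change -1.14) and GALNT3 from 66.4 ± 3.69 to 31.4 ± 1.37 (log2 change -1.08). GALNT15 had 0 counts in every control library and 85, 156 and 141 in methotrexate, at least 20.2-fold higher. With epithelial scaling 7 of the 13 were called higher and 0 lower, a smaller share than the 77.8% of all genes.

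Further enzymes extend and cap the sugars. Of 24 listed, 19 were tested, with 7 higher and 9 lower and a median of -0.073; the share called higher was close to the 35.4% of all genes. Those higher included the sialyltransferases ST3GAL1, from 5.20 ± 0.601 to 76.2 ± 19.3 CPM, and ST3GAL4, from 9.51 ± 0.617 to 37.4 ± 2.86. Those lower included B3GNT3, which extends core chains, from 22.5 ± 1.04 to 9.57 ± 3.24 CPM, and GCNT3, which branches the core, from 8.11 ± 0.572 to 3.75 ± 0.653. With epithelial scaling 13 of the 19 were called higher and 0 lower, again a smaller share than the 77.8% of all genes.

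Most tested goblet cell products were lower in methotrexate, as most tested mucins were. Of 20 listed, 14 were tested, and 12 were called lower and 0 higher, with a median log2 change of -0.98. AGR2 went from 605 ± 64.0 to 294 ± 23.8 CPM, TFF1 from 55.2 ± 1.87 to 26.7 ± 1.57 and REG4 from 81.5 ± 7.50 to 39.2 ± 2.97. With epithelial scaling 0 were called in either direction and the median was 0.0057. Goblet and intestinal transcription factors showed 12 lower and 1 higher of 16 tested, with a median of -1.02. HNF4A went from 708 ± 42.8 to 329 ± 65.0 CPM and ATOH1 from 0.982 ± 0.232 to 0.296 ± 0.210, on 5 to 29 counts a library. KLF4, of goblet cells and many mesenchymal cells, was the factor called higher, from 11.8 ± 2.40 to 51.4 ± 4.56 CPM.

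Of 22 listed proteins that shed, bind or traffic mucins, 21 were tested, with 13 lower and 5 higher, where 29.1% and 35.4% of all genes were, and a median of -0.76. MEP1A, the brush border protease meprin alpha, went from 167 ± 5.17 to 79.4 ± 3.12 CPM, and MYO5B, the motor of apical vesicles, from 65.7 ± 3.98 to 28.9 ± 2.53. LGALS1, a galectin abundant in mesenchymal cells, went from 1.07 ± 0.319 to 944 ± 97.2 CPM. LGALS1 was also the gene of the 6 pathway lists called with both agents against control, with 58, 78 and 65 counts against 30, 22 and 21. Its log2 change there was 1.53 ± 0.21 (edgeR adjusted p = 0.0133). With lactoferrin alone it had 22, 18 and 18 counts, and 0 genes of the 6 lists were called.

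By the hg19 coordinates of the deposited table, MUC2 lies on chromosome 11 at 1074875 to 1104419, MUC5AC at 1151580 to 1222364 and MUC5B at 1244296 to 1283406, all on the plus strand. MUC12 (100612904 to 100662230) and MUC17 (100663353 to 100702020) are neighbours on chromosome 7, plus strand. On chromosome 3, MUC20 (195447753 to 195467994, plus strand) and MUC4 (195473636 to 195539148, minus strand) are neighbours, and MUC13 lies apart at 124624289 to 124672663 on the minus strand. MUC1 lies on chromosome 1 at 155158300 to 155162707, minus strand. Counts cover whole genes, so no exon or UTR can be named. Of 96 other genes within 200 kb of a mucin, 62 were tested, and in methotrexate 19 were called higher and 16 lower with a median log2 change of 0.026, shares near the 35.4% and 29.1% of all genes. In lactoferrin and in both agents against control, 0 of the 62 were called. Within the chromosome 7 pair MUC12 and MUC17 were both lower in methotrexate, while of the chromosome 3 pair MUC4 was called and MUC20 was not.

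The genes whose levels followed MUC13 most closely differed with the libraries used. Over all 12 libraries, the highest Pearson correlations of log2(CPM + 0.5) with MUC13, among 11155 genes with a mean of at least 5 CPM, were those of ARHGEF12 (0.992), PRKRIR (0.990) and TMEM144 (0.989). Over the 9 libraries without methotrexate alone they were CDC16 (0.982), SLC38A1 (0.982) and SLC38A2 (0.968). For MUC5AC they were LRRN4 (0.987), ZNF672 (0.985) and ADRA2C (0.985) over 12 libraries, and LIG1 (0.973), CPNE7 (0.948) and IDUA (0.913) over 9. The 12 libraries share the split between methotrexate and the rest, and neither mucin kept a gene of its top 3 when that group was left out.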

How the data were processed

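The 12 spheroid samples were profiled by paired-end bulk RNA sequencing. The authors deposited whole-number counts per gene for 12 samples, with gene length and hg19 coordinates, per the file headers. CASAVA, STAR, DESeq2 and hg19 are named in the submitters' processing notes, while no source used here gives versions, annotation, strand or whether a count is a read or a pair. No row lacked a gene name. Totals were 18714054 to 60591667 counts, so that 3 counts are 0.0495 to 0.160 CPM, covering counting error only.

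The fits used edgeR 4.0.16 with limma 3.58.1 in R 4.3.3: filterByExpr left 16733 genes, TMM factors were 0.852 to 1.08, and 1 mean per group was fitted to all 12 libraries (biological coefficient of variation 12.9%, 8 residual degrees of freedom). Quasi-likelihood tests of 6 contrasts were adjusted by Benjamini-Hochberg over all genes and called under 0.05; ± after a log2 change is its SE. The fit was tested on simulated data. Epithelial scaling used the median ratio of 49 genes. Alternatives were DESeq2 1.42.0, its size factors, no filter, a replicate block, the compared groups alone, the submitters' cut-offs (2-fold, adjusted p under 0.01), each library left out, and other lengths and members for the ratio; GENCODE lengths, and the ratio without MUC13 and MUC5AC with each library left out, were added after seeing the data.

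The mucins and gene lists were chosen with earlier results of these data known. Named genes were the 9 mucins, up to 4 genes per pathway list with the lowest p in each comparison with control, the 3 genes most correlated with MUC13 and MUC5AC, and the markers ADIPOQ, COL1A1, EPCAM and VIL1.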

Additional observations from a re-analysis of the deposited data

Results flagged for a closer look

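By edgeR's test of the interaction, the difference that went with the methotrexate label differed without and with lactoferrin for 3 of 8 mucins. Of all genes tested, 20.6% were called higher and 26.1% lower. The log2 interaction was 1.69 for MUC4, 1.01 for MUC13 and 0.99 for MUC17. The MUC13 and MUC17 libraries of both agents ran from below to above the control range, whereas MUC4 was at 0.764, 0.970 and 1.55 CPM with both agents against 0.522 to 0.814 in control. The calls for MUC4 and MUC17 were lost with a replicate block (edgeR adjusted p = 0.0543 and 0.0572) and without any of several single libraries, as given above. The methotrexate libraries are also those with the adipocyte and fibroblast transcripts, whose part in these values was not tested. With epithelial scaling the same values were 0.74 for MUC4, 0.042 for MUC13 and 0.023 for MUC17, and 0 of the 3 were called. For the interaction with that scaling, 0.221% of all genes were called higher and 67.1% lower.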

How the results depend on the processing

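Of the mucins called, 6 in methotrexate against control became 1 with epithelial scaling (MUC1, higher, and 0 lower) and 2 with the submitters' cut-offs. In that comparison 77.8% of all genes were called higher with epithelial scaling and 0.299% lower. For both agents against methotrexate, 4 became 1 and 2, and for the interaction 3 became 0 and 1, in the same order of settings. With epithelial scaling 0.55% of all genes were called higher and 75.5% lower for both agents against methotrexate. For the interaction the shares were 0.221% and 67.1%. Leaving out 1 library gave 4 to 6, 4 to 5 and 1 to 4 called. No share of all genes is given for the submitters' cut-offs or for libraries left out, so those counts lack a background. The log2 change of MUC13 in methotrexate went from -0.95 to 0.042 ± 0.16 with epithelial scaling, which shifts all genes alike. For the numbered replicates, deviations of same-numbered libraries correlated at -0.49 to 0.26 (median -0.072, 4 of 18 pairs over 0.1). Other pairs ran from -0.36 to 0.59. With 3 libraries a group, these values cannot settle whether a number marks a shared culture or day. The replicate block left 1 mucin called for the interaction (MUC13), with edgeR adjusted p of 0.0543 for MUC4 and 0.0572 for MUC17. The ratio of membrane-bound to secreted mucins was 7.81, 8.78, 6.52 and 8.30 without length scaling in control, methotrexate, lactoferrin and both agents. Without MUC13 and MUC5AC it was 15.4, 20.7, 14.3 and 20.3, but 9.95 in control without library 1 and 9.17 in lactoferrin without library 2. With GENCODE lengths for all but MUC2 it was 37.8, 44.6, 31.4 and 40.8. Of 926 alternatives for single mucins, 878 kept direction and call or were called in neither, 43 lost the call and 4 gained it. In 1 the sign changed and the call was lost, for MUC13 in methotrexate with epithelial scaling (0.042, edgeR adjusted p = 0.816). Among the 878, 36 changed sign while called in neither. Depth limits MUC2, MUC4 and MUC5B most, at 3 to 34 counts a library. The cause of these shifts was not tested.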
